A study of Mus musculus with 35 samples.

Results

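Stable clones of immortalized mouse embryonic fibroblasts that expressed either of 2 point mutants of NELFB, MT486 or MT194, were compared gene by gene. The clones were chosen by their labels, 3 with MT486 and 3 with MT194, and make up 6 of the 35 RNA-seq libraries of the series. The parental cells carry 1 floxed and 1 null allele of Nelfb (Nelfb flox/-), and both groups received ectopic NELFB from the same pLenti vector, in which a CMV promoter drives a C-terminally flag-tagged cDNA, were selected with G418 and then received Ad-Cre, adenovirus with Cre recombinase, which deletes the floxed allele. Each line was grown from a single colony, so a clone carries its own lentiviral integrations and whatever changes its founder cell had, and a group is 3 such lines. The 9 other stable clones of the series, 3 each labelled WT, WT(N48) and Δ-C60, entered the model to estimate the spread between clones. The WT clones have the pLenti vector, whereas the WT(N48) and Δ-C60 clones carry NELFB in another vector, pBabe, so a difference from those 6 clones cannot be told apart from one of the vector. Populations of the same cells with MT486 or MT194, collected 7 days after Ad-Cre (a virus that also carries GFP) or Ad-GFP (which carries GFP alone and leaves the floxed allele in place) and not cloned, gave 8 further libraries with 2 replicates per group. The spread between populations was estimated with 12 more libraries of the same design, 2 per virus with the empty vector (EV), WT or DMT, which is labelled as carrying both MT194 and MT486.

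NELFB is the scaffold subunit of the negative elongation factor, NELF, which holds RNA polymerase II shortly downstream of the start site of most active genes until the kinase P-TEFb releases it. NELFB joins the lobe formed by NELFA and NELFCD to NELFE, the subunit that contacts RNA. In the study's description of its constructs, binding to NELFE was absent in MT486 and present in MT194. Binding to NELFA and NELFCD was absent in MT194 and at least partial in MT486. The study also found MT194 mainly in the cytoplasm and MT486 mostly in the nucleus. It reports that MT486, unlike MT194, kept chromatin binding at the start site, measured at Actb. Polymerase occupancy was less defective in MT486 than in MT194. The comparison therefore sets 2 differently damaged scaffolds against each other in cells without an intact endogenous Nelfb gene, and its question is whether the RNA content of the clones differs between them.

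The sequences below show what distinguishes the constructs. The mutagenesis primers are printed 5′ to 3′ beside the matching stretch of the reference Nelfb transcript of GENCODE (GRCm38, which is mm10), with the 3 exchanged codons in capitals, and outside these codons the primers matched the transcript with 0 mismatches.
MT194 primer: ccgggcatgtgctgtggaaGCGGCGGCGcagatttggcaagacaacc
Nelfb at MT194: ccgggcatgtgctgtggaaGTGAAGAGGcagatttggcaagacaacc
MT486 primer: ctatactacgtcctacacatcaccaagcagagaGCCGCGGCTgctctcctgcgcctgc
Nelfb at MT486: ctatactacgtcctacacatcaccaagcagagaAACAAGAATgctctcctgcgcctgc
Nelfb lies on the minus strand of chromosome 2 (chr2:25199712-25211489). The MT194 stretch covers chr2:25209991-25210037, and its 3 exchanged codons (chr2:25210010-25210018), in which 5 bases differ, are in the coding part of exon 4 of 13, where valine, lysine and arginine become alanines. The MT486 stretch covers chr2:25203153-25203210, and its exchanged codons (chr2:25203169-25203177), in which 6 bases differ, are in the coding part of exon 10, where asparagine, lysine and asparagine become alanines. Counted from the ATG of the longest open reading frame of this transcript (580 codons), the codons are 145 to 147 and 437 to 439, so the numbers in the names MT194 and MT486 count from another start, further upstream.

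The 6 libraries held between 19313672 and 22770765 reads on genes. The MT194 clones 1, 2 and 3 had 19552136, 20933014 and 19313672, and the MT486 clones had 22770765, 19877145 and 20350422. Of the 24421 genes in the files, 17797 had a read in at least 1 of the 6 clones and 13223 passed the filter on low counts. Levels are given as CPM, read counts scaled to the library total after TMM normalization, and compared only within a gene. Of 19 fibroblast markers, 16 averaged over 1 CPM, and their summed level was 17103, 32055 and 19077 CPM in the MT194 clones and 19098, 18415 and 20549 CPM in the MT486 clones, with Fn1 (fibronectin) the most abundant and Thy1 listed at 0 in all 6. Epithelial markers summed to 4.25 to 25.2 CPM (Esrp1, Cldn3 and Cldn4 had 0 reads), endothelial markers to 2.40 to 3.10 CPM and skeletal muscle markers to 3.07 to 18.7 CPM. Blood and immune markers reached 121 CPM in MT194 clone 2 against 18.6 to 91.7 CPM in the other five clones, mostly from Cd14, with 0 reads on Tyrobp, Cd3e, Hbb-bs and Hba-a1. Neural and glial markers gave 200 to 382 CPM, mostly Nes, and bone and cartilage markers 329 to 754 CPM, with Col2a1 the most abundant. Adipocyte markers gave 53.2 to 181 CPM, with Plin4 the highest on average, and germ cell and pluripotency markers stayed at or under 1.56 CPM.

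Clones of 1 group were not equally alike. Over genes above 1 CPM, MT486 clones 1 and 2 differed by a root mean square of 0.16 on the log2(CPM + 0.5) scale, whereas the other 14 pairs of clones of the same group differed by 0.41 to 1.14. MT486 clone 3 differed from clones 1 and 2 by 0.72 each, the 3 pairs of MT194 clones by 0.46, 0.73 and 0.78, and the 9 pairs of an MT194 with an MT486 clone by 0.69 to 0.88. The mean chi-square per gene between clones 1 and 2 was 5.06, against 32.4 to 349 in the other pairs of a group, and how far 2 cultures of 1 colony would differ was not measured. They were kept as 2 samples because the labels give them as separate clones. Whether they come from 1 founder cell was not tested. The count of calls, and the list medians that it moved by over 1.5 times, are therefore also given with the reads of both clones summed and counted as 1 sample. Among the 9 other clones, 2 of those labelled WT had little Nelfb RNA (the lowest 10.3 CPM), and fits without the 3 libraries labelled WT are given too.

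Nelfb RNA did not separate the groups. It was 189, 216 and 147 CPM in the MT194 clones and 180, 158 and 135 CPM in the MT486 clones, and the ranges overlap. The log2 fold change (MT486 minus MT194, as for all values that follow) was −0.22 with a standard error of 0.70 and an adjusted p of 0.899 (quasi-likelihood test of edgeR, Benjamini-Hochberg adjustment over the 13223 genes tested, as for every adjusted p from the clones). Reads from the lentiviral cDNA cannot be told apart from those of the endogenous locus. Nelfa gave 0.09 ± 0.20 (log2 fold change ± standard error), Nelfe −0.15 ± 0.17 and Nelfcd −0.45 ± 0.22, with adjusted p of 0.855, 0.685 and 0.281. Nelfcd was 84.9, 55.7 and 86.2 CPM in MT194 and 49.3, 49.8 and 66.7 CPM in MT486. Of 26 pausing and elongation factors tested, 0 were called in either direction, 13 lay above and 13 below 0, and the elongation factor gene Ell2 had the smallest p (0.61 ± 0.21, adjusted p 0.16).

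A gene was called where the adjusted p fell under 0.05 and the log2 fold change exceeded 1 in either direction. This held for 37 genes, 0.28% of the genes tested, of which 19 were higher (0.144%) and 18 lower (0.136%) in MT486, and a further 9 genes passed the adjusted p with a smaller change. The calls sat close to the threshold, with adjusted p from 0.0149 to 0.048. At an unadjusted p under 0.05 there were 1262 genes higher (9.54%) and 1211 lower (9.16%). In all 37 called genes the 3 MT486 clones lay wholly above or below the 3 MT194 clones, as they did in 29.8% of all genes tested. The median log2 fold change over all genes was −0.01. Because these are bulk libraries, RNA present in more of the cells and more RNA per cell cannot be told apart.

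The number of calls depended on the clones and the tool. With MT486 clones 1 and 2 summed as 1 sample, edgeR called 0 genes (1521 at an unadjusted p under 0.05, smallest adjusted p 0.0761) and DESeq2 called 113, which included 35 of the 37. All 37 had an unadjusted p of at most 0.00142 in that edgeR fit. Without the libraries labelled WT edgeR likewise called 0 genes (2142 at an unadjusted p under 0.05) and DESeq2 311. DESeq2 on the 15 clones called 390 genes and included all 37. Each of the 37 kept its sign in every alternative fit. Their groups do not overlap, so leaving out or summing clones could hardly change a sign, and this is no test of the calls.

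Among the genes higher in MT486, the largest group by kind was the non-coding host genes of small nucleolar RNAs (snoRNAs), transcripts whose introns carry the guide RNAs for modification of ribosomal RNA and whose spliced exons have no long reading frame. Gas5, Snhg1, Snhg3, Snhg5, 1500012F01Rik (Zfas1) and 1110038B12Rik were called, 6 of the 19. This list was written after the values had been seen, so its count is a description. Of its 19 tested members 16 lay above 0, 14 had an unadjusted p under 0.05 and were higher, 0 were called lower, and the median log2 fold change was 1.23, against −0.01 over all genes. Without any 1 of the 6 clones the median was between 1.18 and 1.38, and with MT486 clones 1 and 2 summed it was 1.21.

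Gas5, on chr1:161034601-161038539, was 7.10, 9.68 and 8.81 CPM in the MT194 clones and 49.1, 54.4 and 27.6 CPM in the MT486 clones. All 3 MT486 clones were above all MT194 clones, clone 3 by the least, and the fold was 5.12 (log2 fold change 2.36 ± 0.31, adjusted p 0.0149). Gas5 is an RNA known to accumulate when growth or translation stops. Snhg5 (chr9:88521052-88522897) had 6.56, 9.25 and 8.81 CPM in MT194 and 32.3, 32.1 and 33.9 CPM in MT486, a 3.99-fold difference (2.00 ± 0.28, adjusted p 0.0149). Snhg1 (chr19:8723487-8726326) rose from 7.63, 5.88 and 11.6 CPM to 35.2, 35.7 and 26.1 CPM (1.95 ± 0.30, adjusted p 0.0194). Here too the groups stood wholly apart and MT486 clone 3 was the lowest of its group. Snhg3 went from 4.21, 3.61 and 6.96 CPM to 18.6, 17.6 and 15.6 CPM (1.81 ± 0.34, adjusted p 0.0434). 1500012F01Rik was 5.14, 8.92 and 7.16 CPM in MT194 and 25.9, 24.1 and 28.2 CPM in MT486 (1.88 ± 0.27, adjusted p 0.0149). 1110038B12Rik was 27.2, 31.6 and 42.4 CPM against 99.1, 98.3 and 99.6 CPM (1.55 ± 0.27, adjusted p 0.0395), and the MT486 clones were almost equal. The hosts that missed the call included Snhg4 (1.90 ± 0.55, adjusted p 0.11), Snhg12 (1.83 ± 0.41, 0.0683), Snhg8 (1.52 ± 0.36, 0.0762), Snhg7 (1.23 ± 0.40, 0.137) and Dancr (1.09 ± 0.47, 0.231). Snhg18 (−0.33 ± 0.29), Snhg9 (−0.24 ± 0.59) and Rian (−2.04 ± 2.32) were the members below 0, and Rian varied from 1.19 to 79.6 CPM within MT194 alone.

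In each of these 6 called hosts the MT194 clones were the lowest of all 15 clones. Gas5 averaged 41.5 ± 7.39 CPM (SD, n = 3) in the clones labelled WT, 26.9 ± 6.03 in WT(N48), 14.4 ± 4.43 in Δ-C60, 8.53 ± 1.31 in MT194 and 43.7 ± 14.2 in MT486, and the highest MT194 clone (9.68 CPM) was just under the lowest Δ-C60 clone (9.85 CPM). Snhg5 averaged 26.3 ± 5.71, 22.9 ± 2.34, 18.1 ± 7.98, 8.21 ± 1.44 and 32.8 ± 0.981 CPM in the same order. For Snhg1 the 9 other clones ranged from 12.1 to 28.5 CPM with a median of 25.5, all above MT194.

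**Figure D1:**
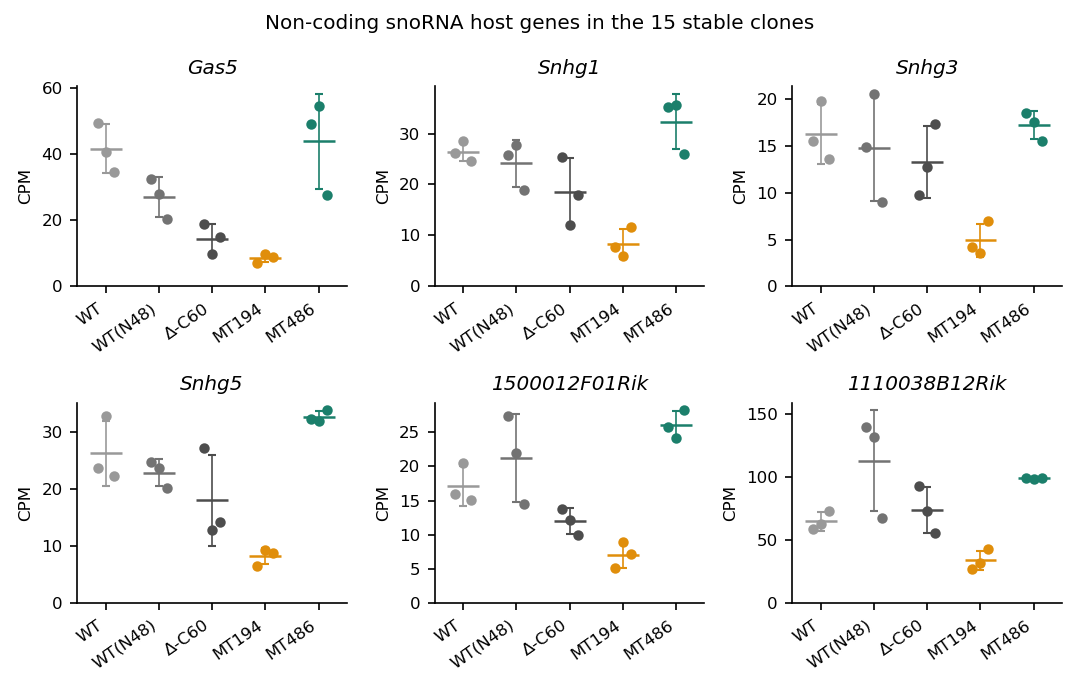
CPM of 6 called snoRNA host genes in the 15 stable clones by group (x axis); points are clones, the horizontal line is the mean of 3 clones and the error bar the SD, and the y axis starts at 0. In every panel the MT194 clones are the lowest group and do not overlap the MT486 clones.

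Many snoRNA hosts belong to the genes whose mRNAs start with a pyrimidine tract (5′ TOP), which links their stability or translation to that of ribosomal protein mRNAs. One annotated start of each of the 6 called hosts is therefore printed (RefSeq, GRCm38.p6), 10 bases before to 20 bases from the start, on the transcribed strand. Capitals mark a C followed by at least 4 bases that are each C or T, where its first base lies within 2 bases of the start, to the end of the tract.
Gas5, downstream start, chr1:161035156-161035185: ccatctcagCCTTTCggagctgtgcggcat
1110038B12Rik, chr17:34952449-34952478: gcacacgggtCTCTTTgtgcacccgcccac
Snhg3, chr4:132353667-132353696: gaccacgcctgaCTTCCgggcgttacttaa
Snhg1, chr19:8723477-8723506: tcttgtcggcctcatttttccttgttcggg
Snhg5, chr9:88522878-88522907: gcggtgaaccgggctcgttcttttacgacg
1500012F01Rik, chr2:167062924-167062953: tgcgccccgggcggccgcaggtctcggctg
Gas5 and 1110038B12Rik each have a further annotated start without such a tract (chr1:161034591-161034620 and chr17:34952452-34952481), and the start with the tract is the one printed. Such a tract stood at 1 or more annotated starts of 3 of the 6 called hosts and of 7 of the 16 tested hosts with an entry, against 10.6% of 27025 genes with an entry, counted in the same way (8.96% of 32851 starts). Annotated starts can be off by some bases, and a tract in these letters is only a description. Of 76 cytosolic ribosomal protein genes, the best known genes of this kind, 0 were called, 59 lay above 0 and 16 had an unadjusted p under 0.05 and were higher (median 0.22, 0.34 without MT194 clone 3). Rpl41 was nearest to a call, at 103, 130 and 134 CPM in MT194 and 259, 258 and 166 CPM in MT486 (0.90 ± 0.18, adjusted p 0.0533).

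The other 13 genes called higher in MT486 include genes of RNA processing, tRNA charging and nuclear transport. Those named here, Ddx21, Dis3, Iars and Ipo5, lie on chromosomes whose genes were higher as a whole, as given below. Ddx21, a nucleolar RNA helicase, was 128, 185 and 164 CPM in MT194 and 536, 474 and 253 CPM in MT486 (1.40 ± 0.26, adjusted p 0.0418). Dis3, the catalytic subunit of the nuclear RNA exosome, was 43.1, 47.8 and 58.7 CPM against 145, 138 and 130 CPM (1.47 ± 0.23, adjusted p 0.0194). Both are named in a list of 72 ribosome biogenesis genes, also written after values were seen, of which 70 lay above 0 and 47 had an unadjusted p under 0.05 and were higher (median 0.56, 0.49 to 0.72 without any 1 clone), 2 were called and 0 lower. In the 22 aminoacyl-tRNA synthetase genes all values were above 0 (median 0.36), and Iars, the isoleucyl-tRNA synthetase, was called (85.1, 115 and 95.2 CPM against 213, 203 and 181 CPM). Of 27 importins and exportins, which carry proteins and RNA through the nuclear pore, 26 lay above 0 (median 0.41), and Ipo5 was called (296, 248 and 295 CPM against 700, 652 and 525 CPM). Both lists were likewise written with the values known.

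Mthfd2, a mitochondrial enzyme of folate metabolism and a target of ATF4, was called among 39 tested genes of the ATF4 stress and serine synthesis list, with 33.0, 39.6 and 47.3 CPM in MT194 and 114, 105 and 81.2 CPM in MT486 (1.32 ± 0.22, adjusted p 0.0328). Of that list 29 lay above 0, 11 were higher and 1 lower at an unadjusted p under 0.05, and the median was 0.37. Cryab, a small heat shock protein, was 41.2, 37.9 and 30.1 CPM against 110, 104 and 94.7 CPM (1.50 ± 0.20, adjusted p 0.0149). In the 9 other clones it ranged from 29.2 to 93.0 CPM, so here the MT486 clones were the highest of all 15. Of 22 heat shock genes 16 lay above 0 (median 0.35), 1 was called higher and 0 lower.

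Genes of cholesterol synthesis and uptake lay mostly above 0. Of 26 tested, 23 lay above 0, 11 were higher and 0 lower at an unadjusted p under 0.05, and the median was 0.60 (0.45 to 0.68 without any 1 clone). Idi1, which isomerises isopentenyl diphosphate, was the 1 called member, at 1.13, 1.38 and 1.10 CPM in MT194 and 4.61, 4.19 and 2.62 CPM in MT486 (1.66 ± 0.32, adjusted p 0.048).

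The largest increases were in genes with little RNA in MT194. Fam65b (Ripor2, an inhibitor of the GTPase RHOA, chr13:24501524-24733806) had 0.489, 1.57 and 0.751 CPM in MT194 and 33.6, 25.9 and 16.2 CPM in MT486, a 26.8-fold difference (4.74 ± 0.83, adjusted p 0.0398), and 3.97 to 48.1 CPM in the 9 other clones. Itgb6, the integrin subunit that pairs with the alpha v chain in epithelia, had 0.881, 0.712 and 0.701 CPM against 16.4, 12.5 and 4.74 CPM (3.86 ± 0.69, adjusted p 0.0398), and the 9 other clones ranged from 0.788 to 6.42 CPM. It was the only call among 20 integrin genes (median −0.24, 0.02 without MT194 clone 2). Rin3, an exchange factor for RAB5 GTPases, had 7.78, 5.69 and 3.00 CPM in MT194 and 22.2, 22.7 and 31.3 CPM in MT486 (2.21 ± 0.34, adjusted p 0.0192), while the 9 other clones had 20.7 to 45.4 CPM. MT194 was thus low for Fam65b and Rin3, and MT486 high for Itgb6 in 2 of its 3 clones. Agpat9 (Gpat3), which starts glycerolipid synthesis, was 4.26, 5.74 and 2.90 CPM against 12.2, 12.8 and 13.8 CPM (1.58 ± 0.29, adjusted p 0.0418). The calls not yet described are Gmnn, which encodes geminin, the inhibitor of replication licensing (1.16 ± 0.18, adjusted p 0.0192), and Rabggtb, a subunit of the enzyme that prenylates RAB proteins (1.03 ± 0.19, adjusted p 0.0413).

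Among the 18 genes lower in MT486, a few were nearly silent there. Pde8a, a phosphodiesterase that degrades cAMP (chr7:81213265-81334535), had 17.2, 16.4 and 21.8 CPM in MT194 and 0.174, 0.591 and 0.414 CPM in MT486, a 46.8-fold difference (−5.55 ± 0.75, adjusted p 0.0149). The 9 other clones held 2.69 to 83.3 CPM, so all 3 MT486 clones were below every other clone. Piezo2, a mechanically gated ion channel, had 12.5, 2.94 and 8.31 CPM against 0.261, 0.394 and 0.0460 CPM (−5.06 ± 0.79, adjusted p 0.0194), but the clones labelled WT were also low, with a mean of 0.464 CPM. Ednra, the endothelin receptor A gene, had 24.4, 21.6 and 11.3 CPM against 0.304, 0.197 and 1.10 CPM (−5.14 ± 0.80, adjusted p 0.0194). Its mean was 16.7 ± 9.89 CPM in the clones labelled WT, 0.299 ± 0.229 in WT(N48) and 0.0250 ± 0.0432 in Δ-C60, so that expression differed from one set of clones to the next across the series. Ankrd29 averaged fewer than 50 counts and had 1.96, 1.90 and 3.35 CPM against 0.130, 0.0493 and 0 CPM (−5.18 ± 0.95, adjusted p 0.0418). Jag1, a ligand of Notch receptors, had 41.9, 35.3 and 50.8 CPM in MT194 and between 9.51 and 13.5 CPM in the 3 MT486 clones (−1.91 ± 0.37, adjusted p 0.048), and 15.4 to 102 CPM in the other clones. It was the only call among 23 Notch and Hedgehog genes (median −0.14, −0.07 without MT486 clone 2 and −0.22 without MT194 clone 3).

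For other genes the MT194 clones were high. Plat, the tissue plasminogen activator (chr8:22757722-22782848), had 504, 552 and 618 CPM in MT194 and 160, 183 and 296 CPM in MT486 (−1.39 ± 0.25, adjusted p 0.0398), while the 9 other clones reached at most 287 CPM. Glul, glutamine synthetase, had 312, 203 and 195 CPM against 71.7, 74.4 and 94.3 CPM (−1.56 ± 0.26, adjusted p 0.0328), with 49.7 to 146 CPM elsewhere. Gatb, a subunit of the amidotransferase that charges mitochondrial glutamine tRNA, had 61.4, 35.7 and 37.8 CPM against 11.1, 13.6 and 13.7 CPM (−1.81 ± 0.31, adjusted p 0.0331). Fcgrt, the neonatal Fc receptor, had 83.6, 82.4 and 71.9 CPM against 26.5, 33.5 and 25.6 CPM (−1.47 ± 0.26, adjusted p 0.0396). In each of these 4 genes MT194 lay above all 12 other clones. Nrbp2, a pseudokinase, had 31.2, 33.9 and 17.6 CPM against 8.60, 8.87 and 8.47 CPM (−1.67 ± 0.31, adjusted p 0.0424). Rnft2, which encodes a RING finger membrane protein, had 25.4, 16.5 and 21.7 CPM against 6.13, 7.04 and 9.44 CPM (−1.49 ± 0.29, adjusted p 0.048). The remaining genes called lower were H2-DMa, a chaperone of MHC class II loading (−1.35), the kinase gene Map4k3 (−1.28), the scavenger receptor gene Colec12 (−1.19), and Pld3, Chid1, Ech1 and Cpt1c, with adjusted p from 0.0149 to 0.048.

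**Figure D2:**
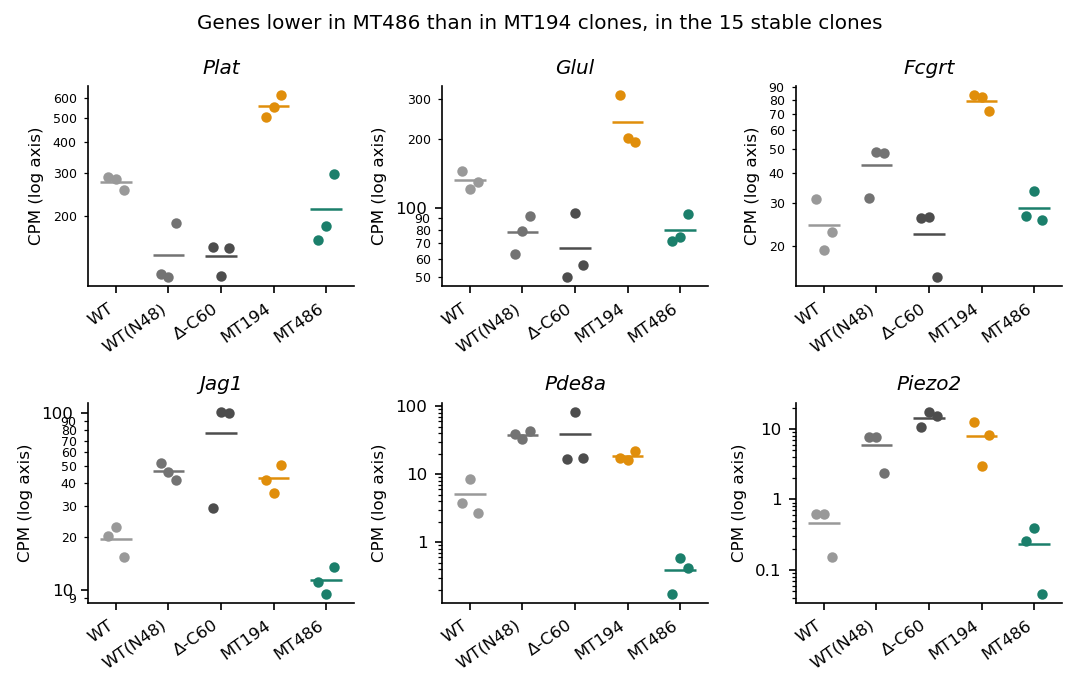
CPM on a log axis of 6 genes called lower in MT486 in the 15 stable clones by group; points are clones and the horizontal line is the mean of 3. For Plat, Glul and Fcgrt the MT194 clones are above all others, and for Jag1 and Pde8a the MT486 clones are below all others.

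Of the 37 called genes, 26 had all 3 MT194 clones outside the range of the other 12, 16 of them below and 10 above, as did 6.22% of all genes tested. All 3 MT486 clones stood outside the other 12 in 7 called genes (2 above and 5 below) and in 0.734% of all genes, and neither group did in 4. Without the libraries labelled WT the counts were 28 and 10 (8.52% and 2.72% of all genes). The genes were called on the difference between these groups, so these counts are a description.

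Genes of fatty acid oxidation lay mostly below 0. Of 29 genes tested 1 lay above 0, 10 were lower and 0 higher at an unadjusted p under 0.05, and the median log2 fold change was −0.46 (−0.55 to −0.40 without any 1 clone). Called lower were Ech1, an isomerase for unsaturated fatty acids, at 75.7, 69.5 and 57.3 CPM in MT194 and 28.5, 32.4 and 28.1 CPM in MT486 (−1.19 ± 0.17, adjusted p 0.0149), and Cpt1c, the neuronal form of carnitine palmitoyltransferase, which is not known for transport of fatty acids into mitochondria, at 38.1, 37.7 and 31.1 CPM against 15.8, 18.2 and 14.8 CPM (−1.13 ± 0.22, adjusted p 0.048). In MT486 clone 3 the median deviation of the list from the mean of the 6 clones was 0.04, whereas it was −0.36 and −0.37 in clones 1 and 2. Of 75 oxidative phosphorylation genes 0 were called, and 27 lay above 0 (median −0.13, −0.06 without MT194 clone 3 and −0.22 without MT194 clone 2). Of 27 citrate cycle genes 0 were called (median 0.00). Lysosomal protein genes, a list written with the values known, had 6 of 55 above 0 and a median of −0.41, with 15 lower and 0 higher at an unadjusted p under 0.05. Pld3, a lysosomal exonuclease, was called at 131, 154 and 117 CPM against 41.4, 45.7 and 68.4 CPM (−1.37 ± 0.26, adjusted p 0.048), as was Chid1, which encodes a chitinase-like protein, at 81.8, 83.6 and 87.4 CPM against 40.6, 40.4 and 34.4 CPM (−1.13 ± 0.17, adjusted p 0.0192).

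Genes of the G2/M and S phase lists lay mostly above 0 without a call, and the called gene Gmnn is on neither list. Of 49 G2/M and mitosis genes 47 lay above 0 (48.8% of all genes did), 20 were higher and 0 lower at an unadjusted p under 0.05, and the median was 0.42 (0.35 to 0.47 without any 1 clone, 0.41 with MT486 clones 1 and 2 summed). Ccnb1, cyclin B1, came nearest, with 25.9, 28.1 and 31.6 CPM in MT194 and 52.7, 53.9 and 58.5 CPM in MT486 (0.95 ± 0.20, adjusted p 0.0576). Of 52 S phase and DNA replication genes 46 lay above 0, 15 were higher and 0 lower at an unadjusted p under 0.05 (median 0.31). MT194 clone 3 was at −0.02 for the G2/M list and at 0.00 for the S phase list, near the mean of the 6 clones, so that MT194 clones 1 and 2 (−0.19 and −0.38, and −0.13 and −0.30) carried most of the low side. The 18 genes of G1 cyclins, kinases and CDK inhibitors had a median of −0.01 and 0 calls, with Cdk2 nearest to a call (1.02 ± 0.23, adjusted p 0.0694). Among 30 tested genes of Trp53 and its targets 21 lay above 0 (median 0.24) and 0 were called, with the death receptor gene Tnfrsf10b nearest (1.11 ± 0.25, adjusted p 0.0698).

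**Figure D3:**
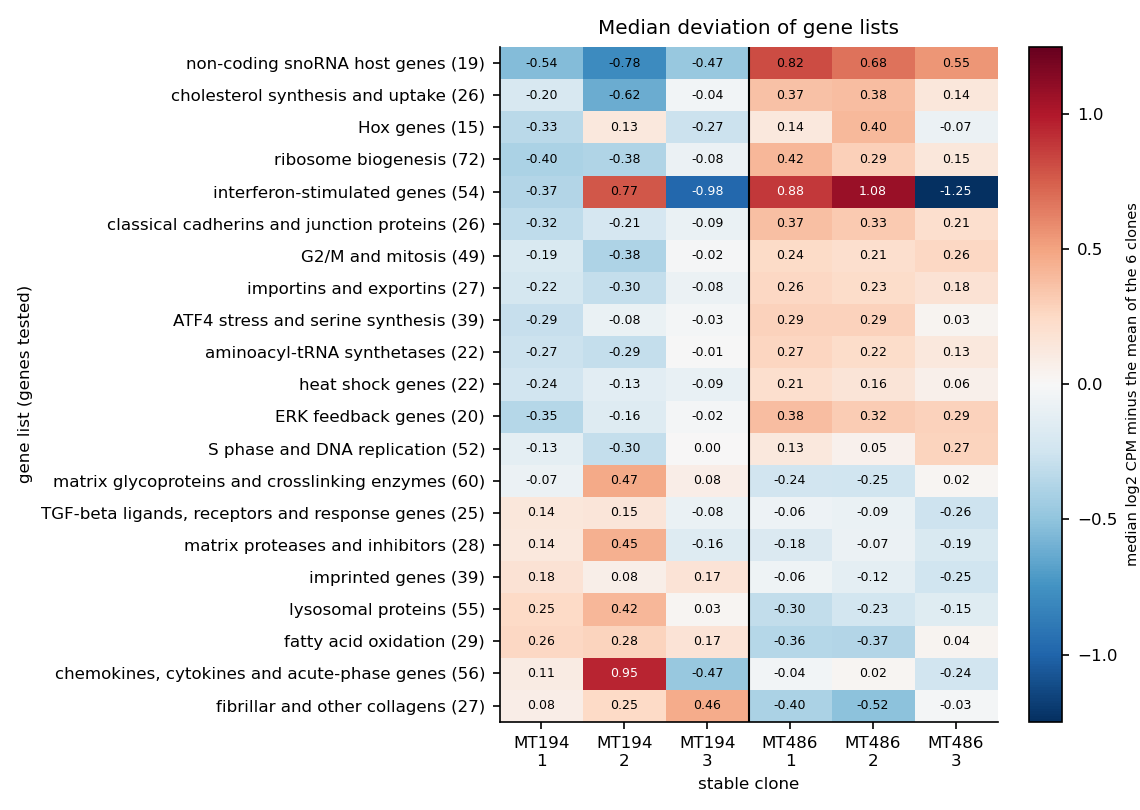
Median deviation of log2 CPM from the mean of the 6 clones (colour and number) for 21 gene lists with at least 15 genes tested and an absolute median log2 fold change of at least 0.3 (rows, with the number of genes tested), in the 3 MT194 and 3 MT486 clones (columns). The snoRNA hosts separate the groups in all 6 clones, whereas the interferon list is high in MT194 clone 2 and MT486 clones 1 and 2 and low in the others.

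Interferon-stimulated genes varied more within the groups than between them. Of 54 tested 44 lay above 0 and the median was 0.52, but 2 were higher and 0 lower at an unadjusted p under 0.05, and 0 were called. The median deviations were −0.37, 0.77 and −0.98 in the MT194 clones and 0.88, 1.08 and −1.25 in the MT486 clones, so each group held high and low clones. Bst2, which tethers budding virus to the cell surface, had 12.8, 31.6 and 9.36 CPM in MT194 and 167, 168 and 10.5 CPM in MT486 (2.68 ± 0.84, adjusted p 0.128). The median of the list was 0.26 without MT486 clone 2 and 1.12 without MT194 clone 2, and 0.34 with MT486 clones 1 and 2 summed. The chemokine, cytokine and acute-phase list likewise had MT194 clone 2 at 0.95 and the other five clones between −0.47 and 0.11, and its median of −0.46 became 0.01 without that clone. MHC class I and antigen processing genes (22 tested) had a median of −0.17 and 0 calls, and were at −0.46 without MT194 clone 3 and at 0.11 without MT486 clone 3, and at −0.39 with MT486 clones 1 and 2 summed.

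Matrix genes had medians below 0, which for glycoproteins and proteases depended on MT194 clone 2. Of 27 collagens 6 lay above 0, 4 were lower and 1 higher at an unadjusted p under 0.05, 0 were called, and the median was −0.60 (−0.83 to −0.51 without any 1 clone). The collagen with the smallest p was Col28a1 (−1.83 ± 0.49, adjusted p 0.0981). Of 60 matrix glycoproteins and crosslinking enzymes 20 lay above 0 (median −0.30, −0.10 without MT194 clone 2 and −0.61 without MT486 clone 3, 0 called). Of 28 matrix proteases and inhibitors 8 lay above 0 (median −0.37, 0.02 without MT194 clone 2), with Plat the only call. Imprinted genes had 8 of 39 above 0, a median of −0.40 and 0 calls. Igf2, the growth factor gene with the smallest p among them, varied widely within MT194, with 378, 68.7 and 31.6 CPM in MT194 and 1.61, 1.82 and 0.506 CPM in MT486 (−6.92 ± 1.96, adjusted p 0.11), and 0.0802 to 414 CPM in the 9 other clones. In the TGF-beta list (25 genes, median −0.35, −0.16 without MT194 clone 3, 0 called) Inhbb, an activin subunit gene, was nearest to a call, with 94.2, 11.8 and 37.4 CPM against 3.82, 3.74 and 1.06 CPM (−4.05 ± 0.85, adjusted p 0.059).

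The genes of the signaling routes that the study followed at the protein level did not separate the groups as a list. Of 34 genes of PI3K-AKT and RAF-MEK-ERK signaling 16 lay above 0, 6 were higher and 1 lower at an unadjusted p under 0.05, 0 were called, and the median was −0.01. Map2k2, which encodes the kinase MEK2, had 82.9, 106 and 83.1 CPM in MT194 and 170, 158 and 104 CPM in MT486 (0.67 ± 0.19, adjusted p 0.11), and the groups overlap. Feedback genes of the ERK pathway had 15 of 20 above 0 (median 0.34, 0.58 without MT486 clone 3) and 0 calls, with the inhibitor gene Spry2 nearest (0.95 ± 0.37, adjusted p 0.199). Of 23 immediate early genes 13 lay above 0 (median 0.10, −0.04 without MT194 clone 2 and 0.23 without MT194 clone 3) and 0 were called, and Jun, the AP-1 subunit gene, went the other way, with 378, 248 and 375 CPM against 134, 134 and 170 CPM (−1.19 ± 0.30, adjusted p 0.0807). YAP/TEAD genes had a median of 0.11 (0.27 without MT486 clone 3) and 0 calls, and the YAP target Ankrd1 had 10.3, 8.40 and 17.0 CPM against 139, 135 and 57.0 CPM (3.21 ± 0.80, adjusted p 0.0825).

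The lists that follow had 0 called members. Growth factor receptors had a median of −0.28, with Fgfr2 nearest to a call (−0.83 ± 0.22, adjusted p 0.0938), growth factor ligands 0.06, with Gas6 nearest (−4.36 ± 1.13, adjusted p 0.0915), WNT genes −0.25, BMP genes −0.13, patterning transcription factors −0.20 and Hox genes 0.60, with Hoxa4 nearest (1.03 ± 0.28, adjusted p 0.0966). Cadherins and junction proteins had a median of 0.49, with 22 of 26 above 0 and Gja1, connexin 43, nearest to a call (1.34 ± 0.35, adjusted p 0.0956). NRF2 and glutathione genes had a median of −0.26, hypoxia and glycolysis genes −0.00, apoptosis regulators −0.05, fatty acid synthesis genes 0.05 and smooth-muscle and contractile genes 0.28. These medians rest on few clones. Without MT194 clone 1 the Hox median was 0.32. Without MT194 clone 2 it was −0.17 for growth factor receptors and 0.37 for ligands. Without MT194 clone 3 it was 0.01 for ligands, −0.24 for BMP genes, −0.11 for patterning factors and 0.51 for contractile genes. Without MT486 clone 1 the contractile genes were at 0.18, without MT486 clone 2 the WNT genes at −0.13, and without MT486 clone 3 the WNT genes at −0.58 and the NRF2 and glutathione genes at −0.43. With MT486 clones 1 and 2 summed, the WNT median was −0.14, that of growth factor ligands 0.10 and that of immediate early genes 0.03. The medians near 0 (pausing factors, PI3K-AKT and RAF-MEK-ERK, citrate cycle, fatty acid synthesis, G1, apoptosis and hypoxia genes) lay between −0.12 and 0.18 without any 1 clone and between −0.05 and 0.11 with both clones summed. Of the 48 lists other than the 5 written with these values known, 7 held a called gene, 4 of them a higher one and 3 a lower one.

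Genes of some chromosomes were shifted as a whole. A chromosome was found for 13191 of the genes tested. The median log2 fold change was 0.42 over 512 genes of chromosome 13, of which 79.5% lay above 0, 0.39 over 640 genes of chromosome 10, 0.37 over 439 genes of chromosome 14, 0.31 over 465 genes of chromosome 19 and −0.26 over 1044 genes of chromosome 2, and the other 15 medians lay between −0.16 and 0.10. In windows of 20 Mb with at least 20 genes, the medians along chromosome 13 ran from 0.38 to 0.51 and along chromosome 10 from 0.30 to 0.45, so the shift was not confined to 1 segment. Chromosome 13 deviated from the mean of the 6 clones by −0.29, −0.02 and −0.29 in MT194 and by 0.25, 0.26 and 0.15 in MT486, and chromosome 14 by −0.14, −0.27 and −0.14 in MT194 and by 0.22, 0.21 and 0.14 in MT486, so the clones of a group shared a sign on both. On chromosomes 2, 10 and 19 the clones of at least 1 group differed in sign. Chromosome 10 was at −0.39, 0.22 and −0.45 in MT194 and at 0.37, 0.38 and −0.09 in MT486, and chromosome 19 was low in MT194 clone 2 alone (−0.70). MT486 clone 3 was low on chromosomes 7 (−0.44) and 18 (−0.43), where clones 1 and 2 were above 0. Against the mean of all 15 clones, chromosome 13 was at −0.46, −0.15 and −0.43 in MT194 and at 0.10, 0.10 and −0.01 in MT486. On that scale chromosome 14 was at −0.09, −0.19 and −0.08 in MT194 and at 0.28, 0.29 and 0.22 in MT486. In the populations after Ad-Cre the median was −0.14 on chromosome 13 and 0.05 on chromosome 10.

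**Figure D4:**
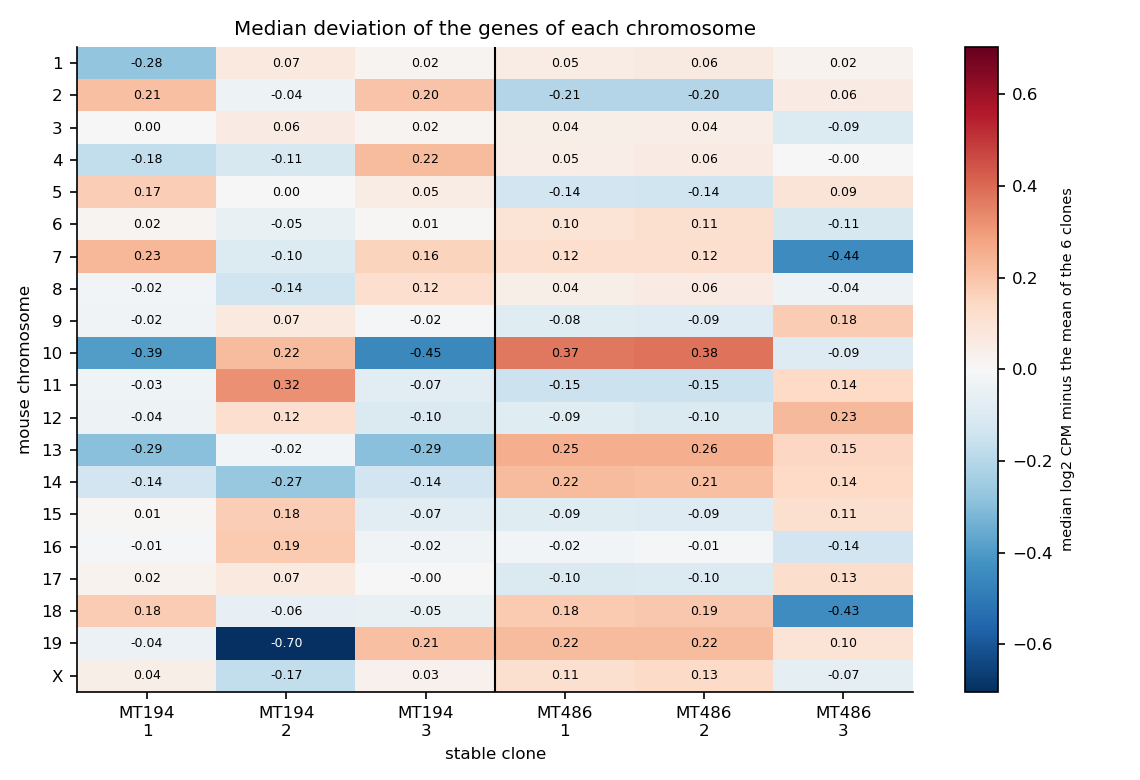
Median deviation of log2 CPM from the mean of the 6 clones over the tested genes of each chromosome (rows), in the 3 MT194 and 3 MT486 clones (columns), with blue below and red above the mean. MT486 clones 1 and 2 show nearly the same values on every chromosome, and chromosomes 13 and 14 are below 0 in all MT194 and above 0 in all MT486 clones.

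Of the 26 genes higher in MT486 at an adjusted p under 0.05, 9 lie on chromosome 13, which holds 3.88% of the genes with a position. These include Fam65b, Gmnn, Iars and Idi1 among the calls and Ipo11, Utp15, Nol7 and H2afy with a change of 1 or less. Relative to the median of their chromosome, Iars differed by 0.59, Gmnn by 0.74, Idi1 by 1.24 and Fam65b by 4.32. On the same scale Ddx21, on chromosome 10, differed by 1.02, and Dis3 and Ipo5, on chromosome 14, by 1.10 and 0.79. Chromosome 7, with 980 of the 13191 genes with a position and a median of −0.16, holds 6 of the 18 genes called lower. It holds 0 of those called higher. Among the 6 are Ech1, Cpt1c, Pld3 and Chid1, which differed from the chromosome median by −1.03, −0.97, −1.21 and −0.97. The snoRNA hosts had a median of 1.49 after each gene was set against its chromosome, the G2/M genes 0.42, cholesterol genes 0.51, ribosome biogenesis genes 0.57 and fatty acid oxidation genes −0.39. Other lists moved more. The median went from 0.37 to 0.21 for the ATF4 list, 0.28 to 0.17 for contractile genes and −0.24 to −0.12 for integrins. It went from −0.25 to −0.38 for WNT genes, 0.11 to 0.20 for YAP/TEAD genes and 0.06 to 0.15 for growth factor ligands. Pausing and elongation factors went from −0.00 to 0.13. Copy numbers were not measured, and their part in these shifts was not tested.

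Populations that were not cloned give the same contrast without selection of single cells. After Ad-Cre, MT486 against MT194 gave 9 calls (0.0652% of 13805 genes), 2 higher and 7 lower, and with the replicate number as a block 117 (0.848%), 40 higher and 77 lower. After Ad-GFP, where the floxed allele remains, there were 4 calls (0.029%), or 46 with the block. None of the 37 genes called in the clones was called in either set of populations, with or without the block (edgeR's quasi-likelihood test). The adjusted p alone was under 0.05 with the block after Ad-Cre for 8 of the 37, all 8 with the sign they had in the clones and a change under 1, against 4.66% of all genes tested there. These are Glul, Rabggtb, Plat, Chid1, 1110038B12Rik, Snhg1, 1500012F01Rik and Ednra, and after Ad-GFP there were 0 (1.17% of all genes). After Ad-Cre 30 of the 37 had the same sign as in the clones, 15 of 19 above and 15 of 18 below 0. The median log2 fold change was 0.11 for the first and −0.33 for the second, against 1.58 and −1.48 in the clones. The genes were chosen for a change over 1 in the clones, so the larger values there are fixed in part by that choice. After Ad-GFP 17 of the 37 had the sign they had in the clones.

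Plat was among the genes that pointed the same way, with 307 and 594 CPM in MT194 and 217 and 363 CPM in MT486 after Ad-Cre (−0.63 ± 0.46, or −0.61 ± 0.12 with the block, adjusted p 0.0102), against 171 and 304 and 168 and 306 CPM after Ad-GFP. Glul had 160 and 107 CPM against 105 and 71.1 CPM after Ad-Cre (−0.60 ± 0.31, or −0.60 ± 0.10 with the block, adjusted p 0.0025). Gas5 had 27.1 and 41.1 CPM against 34.1 and 62.7 CPM (0.51 ± 0.50, or 0.47 ± 0.16 with the block, adjusted p 0.116), and the 2 experiments differed more than the constructs. Snhg1 gave 0.45 ± 0.11 with the block (adjusted p 0.0255) and 1500012F01Rik 0.46 ± 0.12 (adjusted p 0.0301). Pde8a, in contrast, had 5.60 and 5.68 CPM in MT194 and 5.73 and 6.16 CPM in MT486 after Ad-Cre (0.08 ± 0.19, or 0.08 ± 0.16 with the block), and Rin3 had 23.4 and 20.2 against 23.1 and 20.9 CPM (0.01 ± 0.21). In the populations after Ad-Cre the G2/M list had a median of 0.29 with 47 of 49 genes above 0, and the S phase list 0.28 with 47 of 52. After Ad-GFP these medians were −0.17 and −0.08. The matrix proteases were at −0.41 after Ad-Cre, the lysosomal genes at −0.29 with 2 of 55 above 0, and the snoRNA hosts at 0.25 with 15 above 0. The shifts in cholesterol synthesis (−0.01), fatty acid oxidation (−0.01), ribosome biogenesis (0.05) and heat shock genes (−0.08) were near 0 or below it in these populations.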

How the data were processed

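RNA was extracted with an RNeasy kit and sequenced as stranded TruSeq mRNA libraries. Per the paper's methods and the submitters' processing notes, the authors aligned reads to mm10 with Bowtie2, dropped alignments with a mapping quality under 30, sorted with SAMtools and counted reads per gene with HTSeq, and the deposited values are these raw counts, whole numbers without normalization. Versions and the strand setting of the counting are not given in the sources used here. Bowtie2 does not split reads over introns, and the quality filter removes reads that match several places, so genes with short exons, pseudogene copies or an antisense partner may be undercounted or mixed. HTSeq assigned 9.48% to 11.3% of the reads in the 6 clones to no gene and 1.08% to 1.13% to an ambiguous one, and these were left out.

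R 4.3.3 with edgeR 4.0.16 turned the counts into CPM, log2 fold changes and p-values (quasi-likelihood test, filterByExpr, TMM, 1 mean per group over all 15 clones or all 20 populations, robust fit, Benjamini-Hochberg adjustment). A standard error is the log2 fold change divided by the square root of F. DESeq2 1.42.0, DESeq2's size factors, no filter, other sets of clones, other thresholds, the replicate block and leaving out each library were alternatives. Deviations of clones and chromosomes used log2 CPM with a prior count of 2. Gene positions came from RefSeq (GRCm38.p6), by symbol or synonym. Named genes were Nelfb, Nelfa, Nelfcd, Nelfe, the 10 largest changes in each direction among called genes whose groups stand apart and whose mean count reaches 50, and in each list up to 3 called members or the one with the smallest p; other genes were chosen after their values were seen. The members and lists were chosen with earlier results of these data known. The steps were tested on simulated counts. Replicate numbers pair the populations, since they mark 2 experiments and deviations of replicate 1 correlated by 0.42 to 0.73 between all groups. Values of some genes on the lists are not reported here.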

Additional observations from a re-analysis of the deposited data

Results flagged for a closer look

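The MT486 minus MT194 contrast was compared between clones and Ad-Cre populations by an interaction term over all 35 libraries (quasi-likelihood test of edgeR, Benjamini-Hochberg adjustment over 14230 genes, chosen after the values had been seen). Without a replicate block the difference passed an adjusted p of 0.05 for 4 genes, all among the 37 called in the clones. It was −5.59 on the log2 scale for Pde8a (adjusted p 0.00392), −4.49 for Ednra (0.0342), −2.11 for Gatb (0.0342) and 1.96 for Snhg5 (0.0342). The populations gave 0.08 for Pde8a, −0.61 for Ednra, 0.33 for Gatb (−1.81 in the clones) and 0.07 for Snhg5. With the replicate number of the populations as a block, which pairs them, it passed for 31 genes, 14 of them among the 37. These were the same 4 and, with differences on the log2 scale from that fit, Fam65b (4.72, adjusted p 0.0444), Rin3 (2.22, 0.0150), Gas5 (1.92, 0.0350), Cryab (1.69, 0.00459), Dis3 (1.39, 0.0468), Ipo5 (1.23, 0.0468), Iars (1.15, 0.0350), Nrbp2 (−1.70, 0.0481), Piezo2 (−4.72, 0.0468) and Ankrd29 (−5.004, 0.0468). The genes were called on their change in the clones, so its larger size there is fixed in part by that choice. MT486 clones 1 and 2 entered these fits as 2 samples, and the interaction was not tested with their reads summed. Single outlying samples were not looked for, since the groups have 3 clones.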

How the results depend on the processing

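The count of 37 genes called between the clones moved most with the samples and the tool. It was 390 with DESeq2 on the 15 clones, 675 with DESeq2 on the 6 clones and 161 with edgeR on the 6 clones, 0 with edgeR on the 12 clones without those labelled WT (DESeq2 311) and 0 with MT486 clones 1 and 2 summed (DESeq2 113). Leaving out 1 clone gave 0 to 155 calls with edgeR (0 without MT194 clone 1, MT486 clone 1 or MT486 clone 2, 155 without MT486 clone 3), with 1616, 1439 and 1585 genes at an unadjusted p under 0.05 in the fits without a call, and 96 to 693 with DESeq2 (100, 424 and 409 without MT194 clones 1, 2 and 3, and 96, 110 and 693 without the MT486 clones), which kept at least 34 of the 37. The replicate block left 7 calls, but same-numbered clones share only a number (correlations of their deviations 0.04, 0.01 and 0.00). All 37 genes kept their sign, which leaving out or summing clones could hardly change in groups that do not overlap. The cause of the lost calls was not tested. For the populations after Ad-Cre, 9 calls became 42 with DESeq2, 0 with edgeR on the 4 libraries alone (261 at an unadjusted p under 0.05), 117 with the replicate block and 1 to 6 without 1 library; after Ad-GFP, 4 became 25, 0 (212), 46 and 0 to 3. Where 1 library of a group was left it was assumed to vary like the other groups. The medians of chromosomes 13, 10, 14, 19 and 2 kept their sign without any 1 clone. They were 0.38 to 0.52 for chromosome 13, 0.27 to 0.66 for 10, 0.34 to 0.40 for 14 and −0.35 to −0.21 for 2. Chromosome 19 gave 0.09 to 0.52 (the lowest without MT194 clone 2). Chromosome 14 moved to 0.44 over genes of 10 CPM or more. Some smaller medians changed sign, such as those of chromosomes 7 (−0.25 to 0.03) and 9 (−0.10 to 0.05). The 3 clones per group and 2 libraries per population group limit what differences can be told from the spread between clones, and a group difference cannot be told apart from differences among founder cells.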
